A study of Mus musculus with 15 samples.

Results

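Microtubules are hollow polymers of alpha- and beta-tubulin dimers that grow and shrink mainly at their plus ends, carry cargo along axons and dendrites, and build the mitotic spindle. The genes described here are the 44 tubulins, stathmins and microtubule-binding proteins of a list ordered by role, found by symbol among the 53801 genes of the count table. They fall into 10 roles. The 4 stathmins bind free tubulin dimers and promote the shrinkage of microtubules. The 4 alpha, 7 beta and 1 gamma tubulins are the building blocks and the nucleating subunit, and 3 folding cofactors assemble the dimers. The 11 lattice-binding proteins (MAPs) coat the polymer, 8 proteins act at plus ends and 2 at minus ends, 2 enzymes sever the polymer and 2 modify tubulin.

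The RNA came from adult neural stem cells (aNSCs), cells of the subventricular zone of 2-month-old mice (C57BL6/J-129sv) that were kept growing in suspension. All mice carried the Rosa26-CreERT2 transgene, a ubiquitously driven recombinase that 4-hydroxytamoxifen (4-OHT) switches on, and a floxed allele of Trrap, an adaptor protein of histone acetyltransferase complexes. Fl/Fl cultures had both Trrap alleles floxed and Fl/+ cultures had 1, which 4-OHT can also recombine. There were 3 groups of 5 cultures: untreated Fl/+, Fl/+ given 4-OHT, and Fl/Fl given 4-OHT, the latter pair collected 5 days after 4-OHT was added. Both Fl/+ groups came from mice 19, 24, 26, 35 and 36, and the Fl/Fl group from mice 27, 28, 29, 37 and 39, and values by library are given in this order. The comparison of both groups given 4-OHT is called Trrap deletion below, and that of both Fl/+ groups the 4-OHT comparison. They share the Fl/+ 4-OHT libraries and are not independent.

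The libraries held 25.7 M to 32.2 M counts, and levels are given as CPM, counts scaled to a common depth, after scaling by trimmed mean of M-values (TMM). Trrap was measured at 92.9, 115, 142, 89.3 and 82.8 CPM in the Fl/Fl 4-OHT libraries and at 138 to 204 CPM in the Fl/+ 4-OHT libraries, a log2 fold change of -0.64 (SE 0.16, adjusted p = 0.0115 by edgeR's quasi-likelihood test). Levels of the sex-linked genes Ddx3y and Xist are given as CPM of the total counts, without TMM scaling. Fl/Fl 29, the highest Fl/Fl library for Trrap, overlapped the Fl/+ 4-OHT range, and its level of the Y-linked gene Ddx3y, 24.8 CPM, was the lowest among the libraries labelled male. The library labelled female Fl/Fl 39 had 0.32 CPM of Xist and 55.3 CPM of Ddx3y, as in libraries labelled male. Xist was at 75.9 CPM in the male library Fl/+ 4-OHT 36. The summed level of 10 neural stem cell markers was 7175 to 10376 CPM in untreated, 7521 to 9637 CPM in Fl/+ 4-OHT and 5779.9 to 9912 CPM in Fl/Fl 4-OHT libraries. That of 6 microglial markers was at most 1.15 CPM in any library.

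In untreated Fl/+ cultures, 4 tubulins stood at the top of the set when levels were divided by exon length. Tubb2b, an isotype of the developing cortex, was at 430.0 ± 29.6 CPM per kb (SD, n = 5), and Tubb5, a beta tubulin of dividing and neural cells, was at 373 ± 72.0 CPM per kb. Their ranges of 402 to 475 and 279 to 480.3 CPM per kb overlapped. Tuba1a, the main neural alpha tubulin, followed at 257 ± 72.7 CPM per kb and Tubb2a at 207 ± 55.7 CPM per kb, and these ranges overlapped too. No member lay between 100 and 200 CPM per kb. Stmn3 led the next 12 members, at 72.0 ± 11.4 CPM per kb, followed by the folding cofactor Tbcb at 57.5 ± 8.30 and Tubb4b at 56.6 ± 14.5 CPM per kb, whose ranges overlapped its own. All untreated libraries had more Stmn3 per kb than Map2 (54.9 ± 5.53), the dendritic MAP, or Map4 (53.5 ± 3.90), the MAP of most tissues. A further 18 members lay between 5 and 30 CPM per kb, among them Stmn4 at 14.5 ± 7.79, Tubb3 at 18.6 ± 9.23 and Stmn1 at 8.28 ± 1.67 CPM per kb. The other 10 were under 5 CPM per kb, the lowest being Stmn2.

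**Figure D1:**
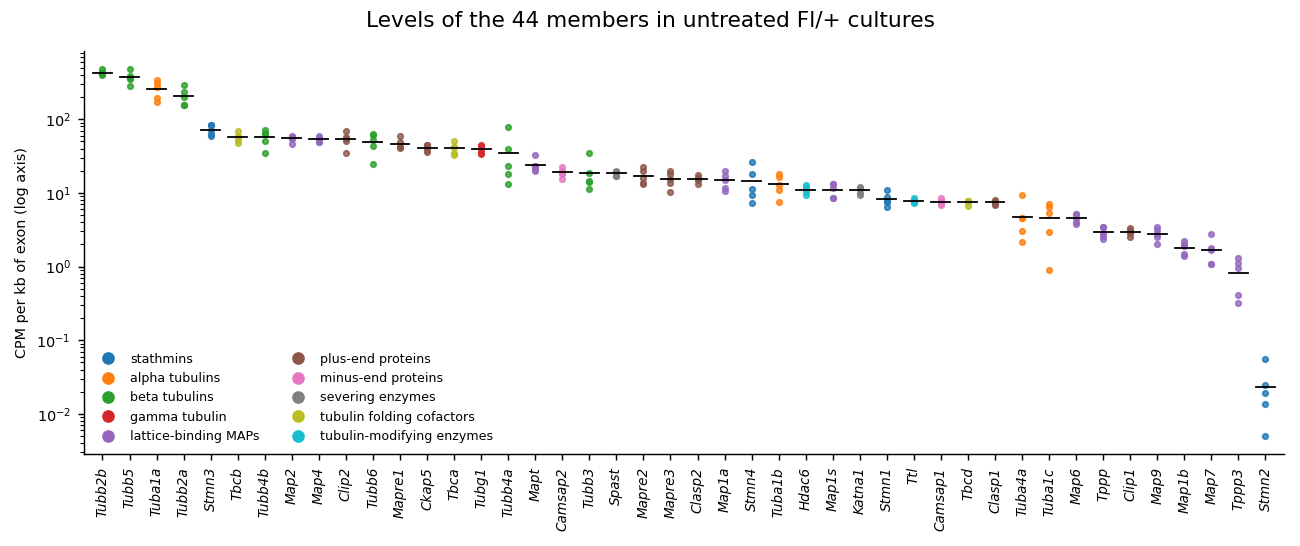
CPM per kb of exon (log axis) for the 44 genes in the 5 untreated Fl/+ libraries, ordered by mean. Points are libraries coloured by role, bars are means, and a library with no count is drawn at the lower edge. Tubb2b, Tubb5, Tuba1a and Tubb2a are the 4 genes with means above 200 CPM per kb, and Stmn2 stands alone at the bottom.

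These levels rest on uniquely mapped reads. Of the 51-base windows in the annotated transcripts of Tuba1a, 75.4% also occur in another gene, and the same holds for 74.9% in Tuba1b, 52.5% in Tuba1c, 49.3% in Tubb2a, 40.8% in Tubb4b and 36.6% in Tubb2b. The share was 18.7% in Stmn1 and 0 in Stmn3, Stmn4, Tubb3 and Tubb6. Counts of the first group are therefore uncertain as levels, since reads from shared stretches were left out.

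With Trrap deleted, more members of this set fell than rose. Of the 43 members tested, 16 fell and 2 rose, so 41.9% were called, against 31.7% of all 15036 genes tested. The share that fell was 37.2%, against 15% of all genes, and the share that rose was 4.65%, against 16.8%. The members were chosen with earlier results of these data known, so such shares, here and below, describe the list and do not test it. The median log2 fold change of the tested members was -0.16, and that of all genes 0.017. All 3 tested stathmins fell, as did 2 of 4 alpha tubulins, 4 of 7 beta tubulins, 1 of 11 MAPs, 3 of 8 plus-end proteins, 1 of 2 minus-end proteins, 1 of 2 severing enzymes and 1 of 2 modifying enzymes. Tuba4a and Mapre3 rose. Fewer microtubule transcripts per cell and fewer cells of a type with many such transcripts cannot be told apart in these bulk libraries.

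**Figure D2:**
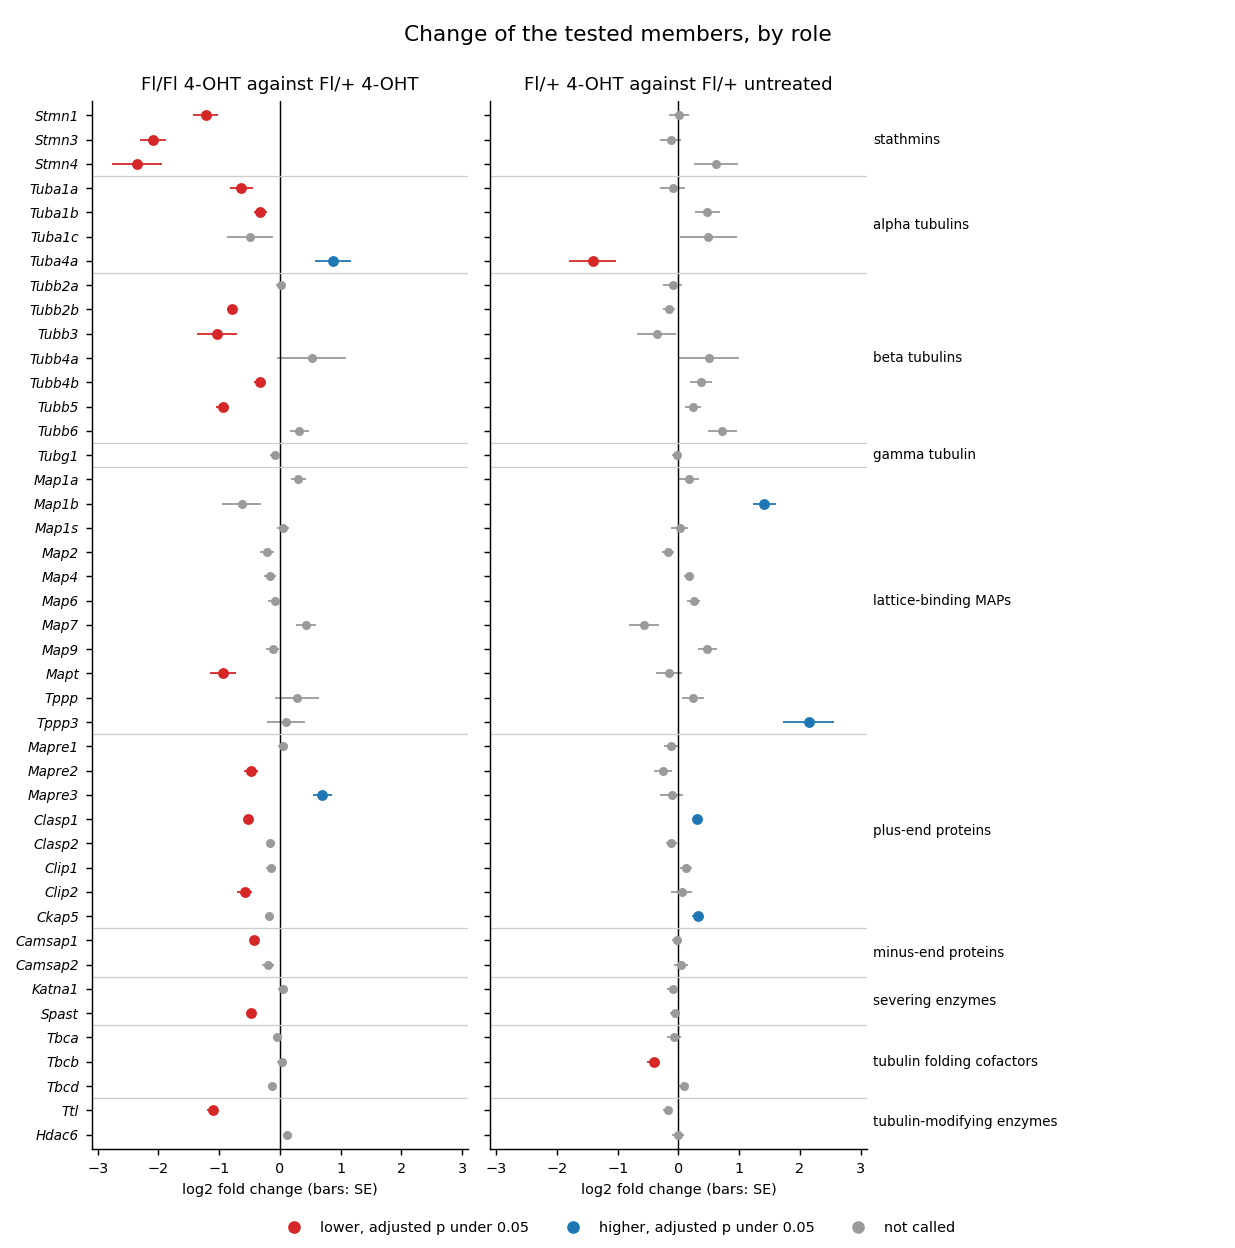
Log2 fold changes with their SE for the 43 tested genes, grouped by role, in the Trrap deletion comparison (left) and the 4-OHT comparison (right). Red and blue points are genes called lower and higher, grey points were not called. The left panel holds 16 red and 2 blue points, the right panel 2 red and 4 blue points.

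The stathmins held the steepest falls. Stmn3 (chr2:181306459-181314500 in GRCm38), a membrane-anchored stathmin of neurons, was at 99.7, 53.4, 90.4, 60.0 and 70.7 CPM in the Fl/+ 4-OHT libraries and at 18.0, 22.1, 17.6, 18.6 and 10.9 CPM in the Fl/Fl 4-OHT libraries. Every Fl/Fl library was below every Fl/+ library. The means were 74.9 ± 19.7 and 17.4 ± 4.04 CPM (SD, n = 5 each), with a log2 fold change of -2.09 (SE 0.21, adjusted p = 0.000117), or 4.24-fold lower. In untreated cultures Stmn3 was at 94.7, 67.3, 95.3, 80.0 and 71.4 CPM, within the range of the Fl/+ 4-OHT libraries, and the 4-OHT comparison gave -0.13 (SE 0.18, adjusted p = 0.677).

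Stmn4 (chr14:66344296-66361680), another neuronal stathmin, was at 46.6, 33.6, 73.8, 30.7 and 29.5 CPM in Fl/+ 4-OHT and at 7.31, 5.78, 6.76, 18.1 and 3.82 CPM in Fl/Fl 4-OHT libraries. The groups did not overlap, although Fl/Fl 37 was well above the other Fl/Fl libraries. On the log2 scale this was a change of -2.35 (SE 0.41, adjusted p = 0.00182), or 5.10-fold lower. Untreated Fl/+ libraries held 34.4, 21.6, 50.8, 18.2 and 14.1 CPM. Each of the 5 mice had a higher value with 4-OHT than without, and the fit with mouse as a replicate block gave 0.69 (adjusted p = 0.00245), while the fit without it gave 0.62 (SE 0.36, adjusted p = 0.28).

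Stmn1 (chr4:134468320-134473843), the cytosolic stathmin of dividing and neural cells, was at 15.6, 17.6, 11.9, 17.9 and 17.5 CPM in Fl/+ 4-OHT libraries. The Fl/Fl 4-OHT libraries held 8.55, 7.31, 4.72, 4.72 and 8.86 CPM, all below the Fl/+ range. Stmn1 thus changed by -1.22 (SE 0.21, adjusted p = 0.00155) on the log2 scale, or 2.33-fold lower. Untreated libraries, at 15.1, 16.8, 14.6, 12.2 and 20.9 CPM, did not differ detectably from the Fl/+ 4-OHT libraries, with 0.017 (SE 0.16, adjusted p = 0.961).

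Stmn2 (chr3:8509360-8561606), a stathmin of growing axons, was close to the limit of detection and was not tested. It had 3, 4, 9, 2 and 0 counts in untreated, 6, 3, 8, 7 and 11 counts in Fl/+ 4-OHT and 2, 3, 4, 34 and 8 counts in Fl/Fl 4-OHT libraries. A floor of 3 counts corresponds to 0.105 CPM at the mean depth. Fl/Fl 37 was the library with 34 counts, and the others of the 3 groups overlapped.

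**Figure D3:**
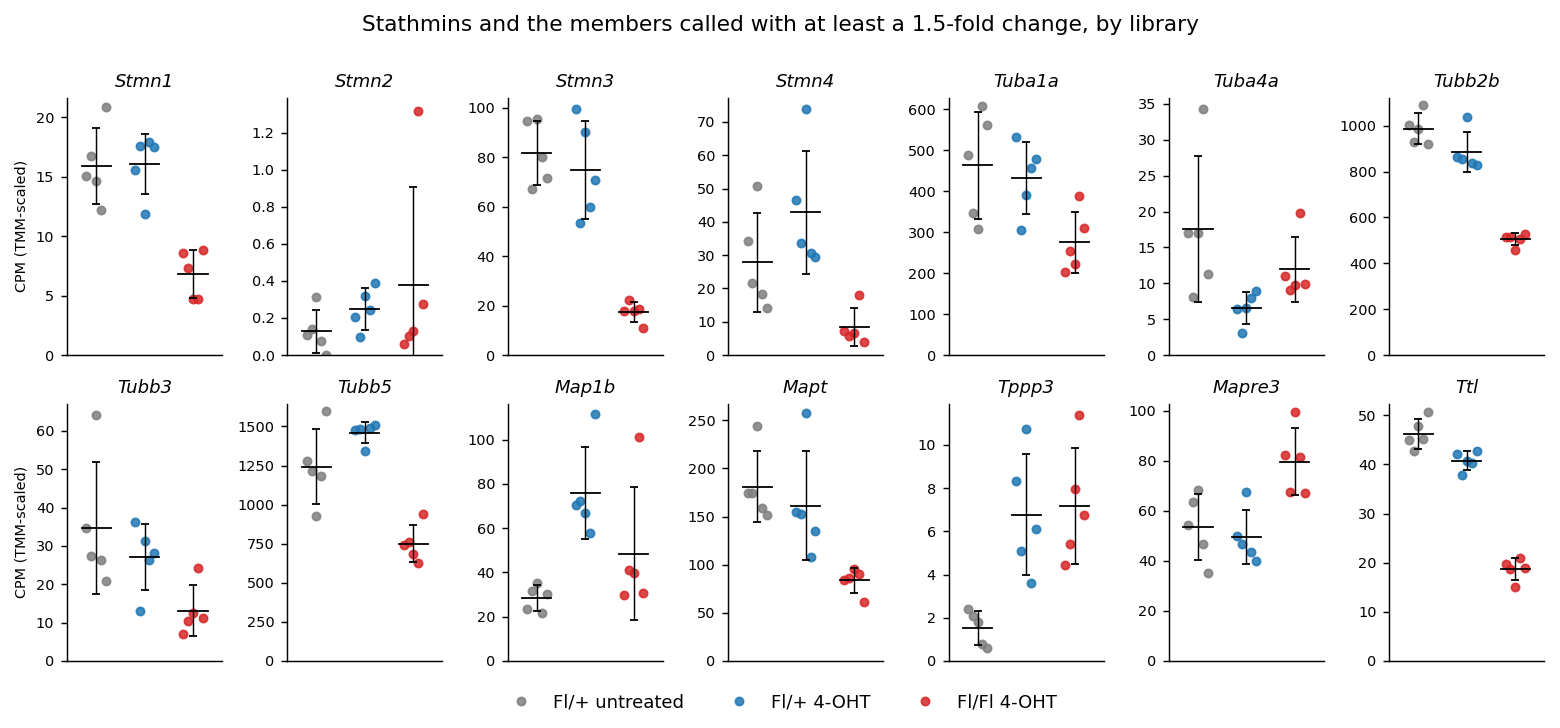
TMM-scaled CPM of the 4 stathmins and of the 10 other genes called with at least a 1.5-fold change in the Trrap deletion or 4-OHT comparison. Points are single libraries in order of mouse number, horizontal bars are means and vertical bars SDs (n = 5), cut at 0 where they pass it. The Fl/Fl 4-OHT libraries lie below all Fl/+ 4-OHT libraries for Stmn1, Stmn3, Stmn4, Tubb2b, Tubb5, Mapt and Ttl and above them for Tuba4a, and Fl/Fl 37 stands above its group for Stmn2, Stmn4, Tuba4a and Map1b.

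Among the beta tubulins, the leading pair fell. Tubb5 (chr17:35833921-35838306) was at 1475, 1484, 1344, 1491 and 1511 CPM in Fl/+ 4-OHT and at 743, 761, 684, 625 and 942 CPM in Fl/Fl 4-OHT libraries, without overlap. Tubb5 changed by -0.94 (SE 0.11, adjusted p = 0.000184) on the log2 scale. Untreated libraries were at 1277, 1218, 929, 1185 and 1598 CPM and did not separate from the Fl/+ 4-OHT libraries. The other of the pair, Tubb2b (chr13:34126748-34130466), was at 863, 856, 1037, 836 and 830.1 CPM in Fl/+ 4-OHT and at 516, 514, 459, 506 and 526 CPM in Fl/Fl 4-OHT libraries. Here too every Fl/Fl library lay below every Fl/+ library, and the 5 Fl/Fl values were tightly grouped. The fit gave Tubb2b a log2 fold change of -0.80 (SE 0.083, adjusted p = 0.000123). In untreated cultures Tubb2b was at 1003, 930.5, 986, 1091 and 922 CPM.

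Tubb3 (chr8:123411424-123422015), the isotype used as a neuronal marker, was at 36.3, 13.1, 31.3, 26.3 and 28.2 CPM in Fl/+ 4-OHT and 6.96, 10.5, 12.5, 24.3 and 11.2 CPM in Fl/Fl 4-OHT libraries. The groups overlapped through Fl/+ 24 and Fl/Fl 37. The log2 fold change of -1.04 (SE 0.33, adjusted p = 0.0334) passed the test with all 10 libraries, but not without any 1 of 8 of them (adjusted p up to 0.0806), the exceptions being Fl/+ 24 and Fl/Fl 37. Untreated cultures held 34.6, 27.5, 64.3, 26.3 and 20.8 CPM. Tubb4b, an isotype rich in cilia, fell by 0.33 on the log2 scale (adjusted p = 0.0262), a call that was lost without Fl/+ 35, Fl/Fl 27 or Fl/Fl 29 and with a dispersion shared by all 15 libraries. The other three beta tubulins were not called, with log2 fold changes of 0.019 for Tubb2a, 0.32 for Tubb6 and 0.52 for Tubb4a. Tubb4a, an isotype rich in oligodendrocytes, ranged from 42.2 to 158 CPM in Fl/+ 4-OHT and from 55.7 to 425 CPM in Fl/Fl 4-OHT libraries, with Fl/Fl 37 highest. Without Fl/Fl 37 its log2 fold change was -0.30, of the opposite sign.

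Among the alpha tubulins, Tuba1a (chr15:98949837-98953703) was at 531, 304, 392, 456 and 479 CPM in Fl/+ 4-OHT and at 202, 254, 221, 388 and 310.1 CPM in Fl/Fl 4-OHT libraries. The groups overlapped, since Fl/Fl 37 and 39 exceeded Fl/+ 24. Tuba1a changed by -0.64 (SE 0.19, adjusted p = 0.0241) on the log2 scale, and the call was lost without Fl/+ 19, Fl/Fl 27, Fl/Fl 28 or Fl/Fl 29 (adjusted p up to 0.0597). In untreated libraries Tuba1a ranged over 489, 348, 308, 608 and 562 CPM. Its close paralog Tuba1b fell by 0.32 on the log2 scale (adjusted p = 0.047), a call that held without Fl/+ 26 or Fl/Fl 39 and was lost without any 1 of the other libraries and under 4 other settings (adjusted p up to 0.207). Tuba1c was not called (-0.49).

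Tuba4a (chr1:75214228-75219865), an alpha tubulin encoded without the C-terminal tyrosine of its relatives, was one of the pair of members that rose. It was at 6.46, 3.04, 6.60, 7.91 and 8.86 CPM in Fl/+ 4-OHT and at 11.0, 9.12, 9.77, 19.8 and 9.90 CPM in Fl/Fl 4-OHT libraries, all of the latter above all of the former. The log2 fold change of 0.87 (SE 0.29, adjusted p = 0.0395) lost its call without any 1 of 8 libraries (adjusted p up to 0.0923), with sex as a covariate and with a dispersion shared by all 15 libraries. Untreated cultures held 17.1, 8.03, 17.0, 34.3 and 11.3 CPM, and in the 4-OHT comparison Tuba4a fell, with -1.41 (SE 0.38, adjusted p = 0.0328) and a lower value in each of the 5 mice. Fl/Fl 4-OHT and untreated cultures were not told apart, at -0.54 (SE 0.36, adjusted p = 0.279). Tuba4a overlaps Stk16 on the opposite strand, and counting was by strand.

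The isotype shares and sums of the tubulin pools are described here without a test. The summed level of the 7 beta tubulins was 1213 to 1245 CPM per kb in Fl/+ 4-OHT, 1037 to 1269.5 in untreated and 788 to 981 in Fl/Fl 4-OHT libraries. The Fl/Fl libraries thus lay below both Fl/+ groups. Tubb2b made up 37.0% ± 3.50 (SD, n = 5) of the beta pool per kb in untreated, 31.2% ± 2.97 in Fl/+ 4-OHT and 25.3% ± 2.11 in Fl/Fl 4-OHT cultures. The share of Tubb5 was 31.8% ± 4.37, 35.6% ± 1.76 and 26.0% ± 4.06 in the same order. Tubb2a took 17.5% ± 3.38, 15.6% ± 0.874 and 22.1% ± 0.978, and its Fl/Fl range of 20.8% to 23.3% lay above the Fl/+ 4-OHT range but overlapped the untreated range of 14.4% to 22.9%. Tubb6 went from 4.14% ± 1.20 through 6.50% ± 1.49 to 11.4% ± 1.04, and its Fl/Fl range of 9.66% to 12.2% lay above that of both Fl/+ groups. Tubb3 was at most 3.32% in any library. Tubb4a reached 19.4% in Fl/Fl 37 and was between 2.86% and 8.98% in the other Fl/Fl libraries.

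**Figure D4:**
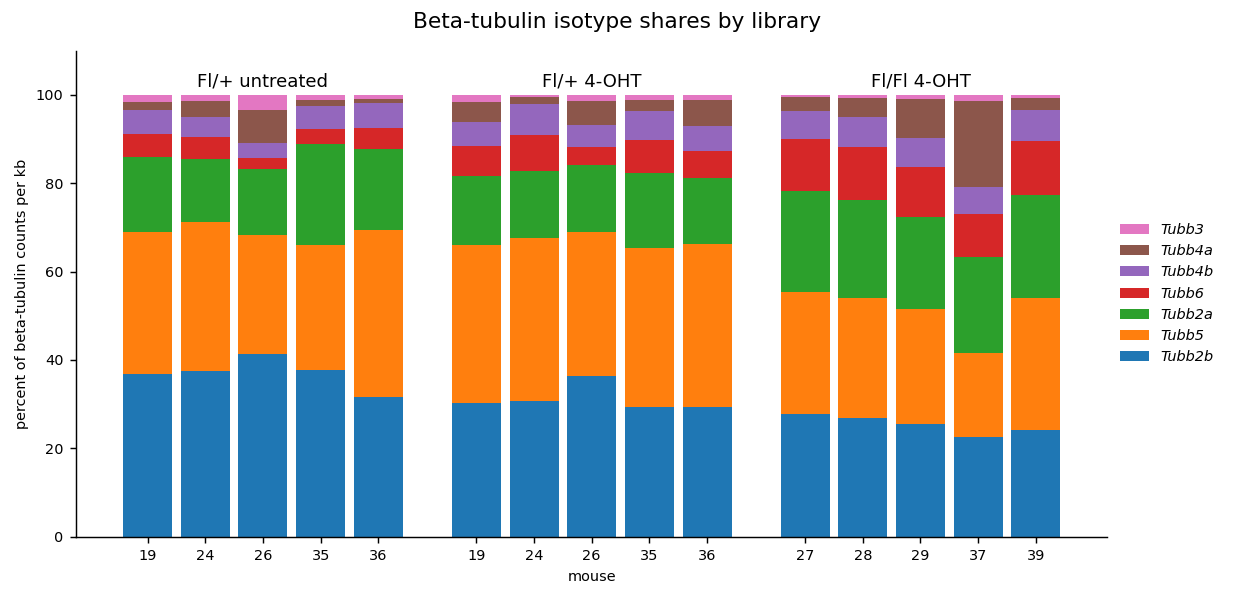
Share of each beta-tubulin isotype in the counts per kb of the beta pool, in percent, with 1 stacked bar per library labelled by mouse. Tubb2b and Tubb5 together fill less of the bar in Fl/Fl 4-OHT than in Fl/+ libraries, Tubb6 fills more, Tubb2a fills more than in Fl/+ 4-OHT but not than in every untreated library, and Fl/Fl 37 has the widest Tubb4a band at 19.4%.

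In the alpha pool Tuba1a kept most of the counts, with 91.8% ± 1.08 in untreated, 89.8% ± 2.47 in Fl/+ 4-OHT and 86.9% ± 2.31 in Fl/Fl 4-OHT cultures. Tuba1b had 4.73% ± 0.891, 7.10% ± 1.68 and 8.69% ± 2.10 in the same order. Its untreated range of 3.57% to 5.55% lay below the Fl/+ 4-OHT range of 6.05% to 10.1%, and the Fl/Fl 4-OHT range of 5.32% to 11.0% overlapped both. The alpha pool summed to 198 to 324 CPM per kb in Fl/+ 4-OHT and 134 to 241 in Fl/Fl 4-OHT libraries. All alpha and beta shares depend on how many reads of each isotype mapped uniquely. In the beta pool, windows also found in another gene made up 49.3% of Tubb2a, 40.8% of Tubb4b and 36.6% of Tubb2b. They made up 0.03% of Tubb5 and 0 of Tubb6 and Tubb3.

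Mapt, which encodes the axonal protein tau, was the 1 MAP of 11 that fell. Mapt (chr11:104231390-104332090) was at 155, 152, 258, 108 and 134 CPM in Fl/+ 4-OHT and at 84.6, 85.8, 95.8, 90.7 and 60.8 CPM in Fl/Fl 4-OHT libraries. The groups did not overlap, and Fl/+ 26 was the highest library with and without 4-OHT. On the log2 scale Mapt changed by -0.94 (SE 0.21, adjusted p = 0.00689), and untreated libraries were at 175, 175, 244, 159 and 152 CPM. The other 10 MAPs gave log2 fold changes from -0.63 for Map1b (adjusted p = 0.157), a protein of growing axons, to 0.42 for Map7 (adjusted p = 0.0683), a partner of kinesin. The dendritic Map2 (-0.21), Map1a (0.30), Map4 (-0.16), the stabilising Map6 (-0.086), Map9 (-0.12), Map1s (0.047) and the polymerisation promoters Tppp (0.28) and Tppp3 (0.10) lay between them.

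At the plus ends, the paralogs of the end-binding family went separate ways. Mapre3 (chr5:30814641-30866106), the EB3 protein of neurons, was at 49.8, 46.8, 67.6, 43.5 and 39.9 CPM in Fl/+ 4-OHT and at 82.5, 67.7, 99.6, 81.4 and 67.0 CPM in Fl/Fl 4-OHT libraries. Only Fl/+ 26 reached into the Fl/Fl range. It rose with a log2 fold change of 0.70 (SE 0.16, adjusted p = 0.0062), and untreated libraries were at 54.1, 63.4, 68.2, 46.9 and 35.2 CPM. Mapre2 (EB2) fell by 0.47 on the log2 scale (adjusted p = 0.00878) and Mapre1 (EB1) was not called (0.047). Clasp1, which rescues shrinking ends, fell by 0.52 (adjusted p = 0.000152) from 193 to 204 CPM to 132 to 148 CPM. Clip2, a linker of plus ends, fell by 0.58 (adjusted p = 0.00596). Clasp2 (-0.16), Clip1 (-0.14) and the polymerase Ckap5 (-0.18) were not called. The minus-end protein Camsap1 fell by 0.42 (adjusted p = 0.000618) and the severing enzyme spastin (Spast) by 0.47 (adjusted p = 0.00141), both without overlap. Their relatives Camsap2 (-0.20) and katanin (Katna1, 0.048) were not called.

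Ttl, the ligase that puts the C-terminal tyrosine back on alpha tubulin, had the lowest adjusted p of the set. Ttl (chr2:129065942-129096283) was at 42.1, 37.8, 40.7, 40.4 and 42.8 CPM in Fl/+ 4-OHT and at 19.8, 18.7, 15.1, 21.0 and 19.0 CPM in Fl/Fl 4-OHT libraries, each Fl/Fl value well below each Fl/+ value. Between the groups Ttl changed by -1.11 (SE 0.091, adjusted p = 4.56e-05) on the log2 scale, or 2.16-fold lower, with untreated libraries at 45.0, 42.7, 47.8, 45.1 and 50.6 CPM. The tubulin deacetylase Hdac6 (0.12), the gamma tubulin Tubg1 (-0.089) and the folding cofactors Tbca (-0.046), Tbcb (0.038) and Tbcd (-0.13) were not called.

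No overlap with a lower Fl/Fl group was seen for 12 of the 43 members, or 27.9%, against 11.4% of all genes, and with a higher Fl/Fl group for 1, against 11.2%. Of the 18 calls, 13 held in every alternative fit that was run, among them the 3 stathmins, Tubb2b, Tubb5, Mapt, Mapre3 and Ttl. The other 5 were Tuba1a, Tuba1b, Tuba4a, Tubb3 and Tubb4b. Calls numbered 17 without Fl/Fl 39, 13 without Fl/Fl 29 and 16 without Fl/+ 4-OHT 36, the libraries whose Trrap or sex-linked reads stood apart. Without Fl/Fl 37, the library with high Stmn4 and Tubb4a, there were 18 again, with Tuba1b and Tuba4a lost and Map1b and Ckap5 gained. Map1b then fell, with a log2 fold change of -1.10 (adjusted p = 0.00207), the other 4 Fl/Fl libraries lying below all Fl/+ 4-OHT libraries, and Ckap5 fell by 0.22 on the log2 scale (adjusted p = 0.0476).

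Promoters of the steeply falling members are shown because the study asks about the transcription factor Sp1, which binds GC boxes. Sp1 itself fell by 0.31 on the log2 scale in Fl/Fl 4-OHT against Fl/+ 4-OHT cultures (adjusted p = 0.0156). It was not called in the 4-OHT comparison, at 0.39 (adjusted p = 0.067), or when Fl/Fl 4-OHT libraries were set against untreated ones, at 0.076 (adjusted p = 0.683). RefSeq promoter windows of 300 bases (250 before and 50 after the start site, GRCm38.p6) were found for 32 of the 44 genes, and for 5 of the 9 members that fell by at least 1.5-fold (6.69% of all genes fell that far). GC boxes, searched as GGGCGG on both strands so that CCGCCC marks one on the other strand, stand in capitals. Each window is written 5′ to 3′ along the gene.
Stmn3, chr2:181314451-181314750, minus strand: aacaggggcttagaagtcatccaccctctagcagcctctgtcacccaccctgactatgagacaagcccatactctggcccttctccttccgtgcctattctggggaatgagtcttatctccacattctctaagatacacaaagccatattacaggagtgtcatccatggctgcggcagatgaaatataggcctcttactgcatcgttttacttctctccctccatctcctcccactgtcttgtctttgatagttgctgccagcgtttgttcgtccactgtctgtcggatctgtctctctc
Tubb5, chr17:35838252-35838551, minus strand: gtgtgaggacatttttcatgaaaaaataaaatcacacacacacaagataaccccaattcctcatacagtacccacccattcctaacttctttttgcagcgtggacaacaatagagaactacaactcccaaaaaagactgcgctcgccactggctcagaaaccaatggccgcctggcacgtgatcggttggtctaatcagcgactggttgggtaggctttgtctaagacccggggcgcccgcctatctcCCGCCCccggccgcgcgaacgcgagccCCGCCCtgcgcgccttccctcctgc
Tubb3, chr8:123411303-123411602, plus strand: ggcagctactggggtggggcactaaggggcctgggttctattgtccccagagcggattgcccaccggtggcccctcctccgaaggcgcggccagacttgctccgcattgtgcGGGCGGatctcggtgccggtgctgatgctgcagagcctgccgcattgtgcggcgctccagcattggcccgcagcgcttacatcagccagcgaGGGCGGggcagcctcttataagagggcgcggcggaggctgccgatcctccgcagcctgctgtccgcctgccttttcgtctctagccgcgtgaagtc
Tuba1a, chr15:98953452-98953751, minus strand: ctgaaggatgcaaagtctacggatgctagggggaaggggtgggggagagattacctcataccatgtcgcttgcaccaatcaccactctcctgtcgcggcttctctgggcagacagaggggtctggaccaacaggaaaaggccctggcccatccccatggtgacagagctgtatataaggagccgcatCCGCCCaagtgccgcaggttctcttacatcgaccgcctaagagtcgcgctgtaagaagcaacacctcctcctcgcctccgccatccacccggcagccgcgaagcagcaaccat
Ttl, chr2:129065697-129065996, plus strand: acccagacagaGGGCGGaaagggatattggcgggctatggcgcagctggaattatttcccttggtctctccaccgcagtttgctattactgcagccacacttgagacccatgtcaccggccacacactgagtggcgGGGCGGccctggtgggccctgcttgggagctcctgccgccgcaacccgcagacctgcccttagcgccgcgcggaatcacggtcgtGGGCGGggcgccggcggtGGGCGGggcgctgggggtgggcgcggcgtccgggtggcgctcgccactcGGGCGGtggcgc

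Ttl had 5 boxes in its window, Tubb5 and Tubb3 had 2 each and Tuba1a had 1, while the letters of a box were not in the Stmn3 window. Over all members, 26 of 37 windows (70.3%) held a box, against 35.7% of 32851 windows of all genes. GC content moved with this, with a median of 62% in member windows and 52.7% in all. Of the 10 members with a window that fell, 9 had a box in at least 1 window, as did 2 of the 2 that rose and 15 of the 20 that were tested and not called. A box is a match of letters, a window without one says nothing of the rest of the promoter, and binding was not measured here.

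In the 4-OHT comparison, 6 of the 43 members were called, or 14.0%, against 13.8% of all 14821 genes. Of these, 4 were higher, against 7.34% of all genes, and 2 lower, against 6.45%. Scaling by library size alone gave 5 higher and 1 lower. The members thus changed about as often as other genes. Since both groups came from the same mice, the fit with mouse as a replicate block was also used. It called 12 members, against 25.7% of all genes. Of the 12, 10 were higher (13.8% of all genes) and 2 lower (11.9%). It added Stmn4, Tuba1b, Tuba1c, Tubb6, Map6 and Map9 to the 6.

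Map1b and Tppp3 rose most. Map1b (chr13:99421446-99516540) was at 23.3, 31.7, 35.1, 21.9 and 30.4 CPM in untreated and at 70.6, 72.5, 66.8, 57.7 and 112 CPM in Fl/+ 4-OHT libraries. Every treated library was above every untreated one, with Fl/+ 36 highest. With 4-OHT Map1b changed by 1.42 (SE 0.19, adjusted p = 0.00127) on the log2 scale, or 2.67-fold higher. In Fl/Fl 4-OHT libraries Map1b was at 29.7, 40.9, 39.7, 101 and 30.9 CPM, so that Fl/Fl 37 lay among the Fl/+ 4-OHT values and the other Fl/Fl libraries nearer the untreated ones.

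Tppp3 (chr8:105467493-105471526), a small protein that promotes tubulin polymerisation, was at 2.39, 2.09, 1.78, 0.770 and 0.589 CPM in untreated and at 8.32, 5.07, 10.8, 3.61 and 6.10 CPM in Fl/+ 4-OHT libraries. The groups did not overlap, and Tppp3 changed by 2.15 (SE 0.42, adjusted p = 0.00755) on the log2 scale, or 4.42-fold higher. Fl/Fl 4-OHT libraries held 4.45, 5.41, 7.94, 11.4 and 6.74 CPM, and overlapped the Fl/+ 4-OHT libraries. Tppp3 was also higher in Fl/Fl 4-OHT than in untreated Fl/+ cultures, with 2.24 (SE 0.41, adjusted p = 0.00221).

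Of the other called members, Clasp1 (0.30, adjusted p = 0.0139) and Ckap5 (0.32, adjusted p = 0.0422) rose in each of the 5 mice. Tbcb, a cofactor that binds alpha tubulin, fell by 0.41 on the log2 scale (adjusted p = 0.0267) and was lower with 4-OHT in each of them. The calls of Ckap5, Tbcb and Tuba4a did not hold in 7, 5 and 7 of the 10 fits on 9 libraries. Clasp1 and Ckap5 were also lost with no filter on low counts (Clasp1 at adjusted p = 0.0514) and Tbcb with scaling by library size alone, so that of the 6 calls Map1b and Tppp3, 2 in all, held in every alternative fit. With the block, Tubb6 gave 0.76 (adjusted p = 0.00486), Tuba1c 0.65 (adjusted p = 0.0447), Tuba1b 0.53 (adjusted p = 0.0323), Map9 0.49 (adjusted p = 0.0253) and Map6 0.26 (adjusted p = 0.0497) as log2 fold changes, all higher with 4-OHT in 5 of 5 mice. The 37 members not called without the block lay between -0.57 (Map7) and 0.72 (Tubb6).

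Against untreated Fl/+ cultures, where genotype and 4-OHT differ together, Fl/Fl 4-OHT cultures had 19 members called, or 44.2%, against 30.7% of all 15032 genes. Of these, 16 were lower, against 15.1% of all genes, and 3 higher, against 15.7%. This comparison shares libraries with both others. Scaling by library size alone gave 12 lower and 5 higher, and DESeq2 gave 17 and 6. Map2 (here -0.39, adjusted p = 0.0331) and Tbcb (here -0.38, adjusted p = 0.0236) fell, while Tuba1b (0.15) and Tubb4b (0.04) were not called. Of the 19 calls, 13 held in every alternative fit that was run, the others being Tuba1a, Map2, Mapre3, Clasp1, Clip2 and Tbcb. Map2 was lost in 6 of the 10 fits on 9 libraries (adjusted p up to 0.0661) and under 2 other settings (adjusted p up to 0.103), and Tbcb in 2 and 1 (adjusted p up to 0.0633). Stmn3 was 4.65-fold, Stmn4 3.31-fold and Stmn1 2.31-fold lower. Tubb6 rose here, at 154, 128, 60.6, 104 and 147 CPM in untreated and 232, 246, 217, 231 and 283 CPM in Fl/Fl 4-OHT libraries without overlap, a log2 fold change of 1.04 (SE 0.21, adjusted p = 0.00384). The other two that rose were Tppp3 and Mapre3 (0.59, adjusted p = 0.0272).

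Further genes of the microtubule system were read from 6 lists beside the set. After Trrap deletion, 12 of 19 tested tubulin-modifying enzymes were called, 9 higher and 3 lower. Over all genes, as above, 31.7% were called, 16.8% higher and 15% lower, and the counts of the other lists are to be read against the same shares. Those that fell were Vash2, Vash1 and the glutamylase Ttll4 (-0.62, adjusted p = 0.00208). Vash2, a vasohibin that removes the tyrosine which Ttl restores, changed by -2.04 (SE 0.20, adjusted p = 0.000111) on the log2 scale and Vash1 by -0.75 (adjusted p = 0.00599), while their partner Svbp was not called (-0.027). Vash2 had means of 21.6, 22.3 and 5.36 CPM in untreated, Fl/+ 4-OHT and Fl/Fl 4-OHT cultures. In the same order, Vash1 was at 152, 241 and 142 CPM and Ttll4 at 46.8, 68.4 and 43.9 CPM. Among those that rose were the deglutamylases Agbl2 (1.03), Agbl3 (1.00) and Agbl5 (0.83), the glutamylase Ttll7 (0.76) and the deacetylase Sirt2 (0.87).

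Of the 13 genes of the chaperonin and its partners, which fold tubulin, 6 fell and 3 rose. The 6 were all subunits of the chaperonin ring, such as Cct3 (-0.46, adjusted p = 0.00699) and Cct6a (-0.43, adjusted p = 0.0148). The 3 that rose were Tbce, Tbcel and Arl2 (0.58, adjusted p = 0.00222). Of 17 other lattice-binding proteins, 6 fell and 4 rose, with the largest fall in Dcx, the doublecortin of young neurons (-2.51 (SE 0.41, adjusted p = 0.00123)), and the largest called rises in Mtus2 (1.46) and Eml2 (1.41). Of 15 other end-binding and severing proteins 5 fell and 3 rose, and of 17 genes of the gamma-tubulin ring and augmin 3 fell, near the share of all genes. Among 8 other tubulins 4 were tested and Tuba8 rose (1.62, adjusted p = 0.000537). In the 4-OHT comparison, 4 of 19 modifying enzymes, 2 of 17 lattice-binding proteins, 5 of 15 end-binding and severing proteins and 1 of 4 other tubulins were called without the block, where 13.8% of all genes were. Of the 13 folding and the 17 ring and augmin genes, 0 passed edgeR's test there, with 0 and 2 at an unadjusted p under 0.05.

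Markers of other cell types and of dividing cells moved with some of these results. The summed level of 13 neuronal markers was 236 to 371 CPM in untreated, 277 to 546 CPM in Fl/+ 4-OHT and 178 to 342 CPM in Fl/Fl 4-OHT libraries, and none was at 0 in a whole group. After Trrap deletion Dcx and Gap43 (-1.37) of this list fell, against 15% of all genes, and Syp (0.57) and Slc17a7 (1.12) rose, against 16.8%. The other 9 were not called, and Dcx is also among the lattice-binding proteins above. Dcx had means of 39.7, 44.5 and 7.75 CPM in untreated, Fl/+ 4-OHT and Fl/Fl 4-OHT cultures. Those of Gap43 were 67.1, 183 and 70.4 CPM. The 10 markers of dividing cells summed to 585 to 1991, 1089 to 1813 and 541 to 1167 CPM in the same order of groups. All 10 had a lower mean after Trrap deletion and 6 were called, where 15% of all genes fell. Mki67 changed by -1.35 (SE 0.25, adjusted p = 0.00243) on the log2 scale. In the 4-OHT comparison 0 of the 10 passed edgeR's test, with 0 at an unadjusted p under 0.05, and 9 had a log2 fold change above 0. The 10 markers of the oligodendrocyte lineage summed to 3395 to 4436, 3281 to 4484 and 3535 to 5415 CPM, and 5 of them rose in the 4-OHT comparison, Mbp with 2.86 (SE 0.69, adjusted p = 0.0205). After Trrap deletion 0 of the 10 passed edgeR's test, with 1 at an unadjusted p under 0.05. Of the 10 neural stem cell markers 4 fell after Trrap deletion, against 15% of all genes, Prom1 with -0.65 (SE 0.15, adjusted p = 0.00709). Prom1 had means of 15.1, 27.0 and 17.0 CPM in untreated, Fl/+ 4-OHT and Fl/Fl 4-OHT cultures. Of the 8 astrocyte markers 1 rose after Trrap deletion, against 16.8% of all genes. In the 4-OHT comparison, where 7.34% of all genes rose and 6.45% fell, 4 of the 8 astrocyte markers fell and Gfap rose (3.25 (SE 0.85, adjusted p = 0.0283)), and of the 10 stem cell markers 3 fell, Hes5 with -1.87 (SE 0.34, adjusted p = 0.00517), and Vim rose (0.49, adjusted p = 0.0235). Of the 12 neuronal markers tested there, 1 rose and 1 fell. Against untreated Fl/+ cultures, where 15.7% of all genes were higher and 15.1% lower, Fl/Fl 4-OHT cultures had 7 oligodendrocyte lineage markers of 10 higher and 1 lower, 1 astrocyte marker of 8 higher and 4 lower, 5 stem cell markers of 10 lower, and 1 neuronal marker of 13 higher and 4 lower. Of the 10 markers of dividing cells, 1 was called there, as lower. The part of these cell types and of dividing cells in the changes of the stathmins, tubulins, MAPs and Tppp3 was not tested.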

How the data were processed

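RNA-seq was performed on 15 cultures of aNSCs, and the authors deposited 1 table of raw counts, with a row for each gene. Per the study's methods, the authors made poly-A selected, stranded libraries, sequenced them single-end in 51 cycles, converted the base calls with bcl2fastq 1.8.4, aligned reads to GRCm38 with STAR 2.5.4b and counted uniquely mapped reads by strand with featureCounts 1.5.0. Reads from stretches shared by paralogs were thus not counted. The dose of 4-OHT and the length of exposure to it differ between the labels and the methods and are not given here.

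Of 53801 gene IDs, 53706 were matched to a symbol in GENCODE M21. Each comparison was fitted on its own 10 libraries with edgeR 4.0.16 in R 4.3.3 (filterByExpr with a minimum count of 10, TMM scaling, quasi-likelihood test), and genes with a Benjamini-Hochberg adjusted p under 0.05 over all genes tested were called. The SE was the log2 fold change divided by the square root of F. Values in every library are given for the 4 stathmins and for members called with at least a 1.5-fold change in the Trrap deletion or 4-OHT comparison. The scripts were tested on simulated data. Alternatives were DESeq2 1.42.0, its size factors, library size alone, 2 other count filters, a common dispersion estimate from the 15 libraries, a term for the labelled sex, fits on 9 libraries, and mouse as a replicate block. Mouse numbers in the labels pair the Fl/+ libraries: over 15435 genes and 5 pairs, deviations of the same mouse correlated with r of 0.156 to 0.626, and of different mice with -0.549 to 0.339. In both comparisons with Fl/Fl cultures, the P-values measure the spread between cultures of separate mice. In the 4-OHT comparison both groups came from the same mice. Its fit without the block treated the paired cultures as independent, and the fit with the block took out differences between mice. Floors cover counting error only.

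The members, the gene lists and the tests were chosen with earlier results of these data known.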

Additional observations from a re-analysis of the deposited data

Results flagged for a closer look

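In groups of 5 libraries, a library was singled out when its gap to the nearest library exceeded 0.71 of the group's range (Dixon's test). Of 42 groups of libraries tested over 14 genes, 8 held such a library, and chance singles out about 1 in 20. Fl/Fl 37 was high for Stmn2 at 1.32 CPM (next library 0.278), for Stmn4 at 18.1 CPM (next 7.31), for Tuba4a at 19.8 CPM (next 11.0) and for Map1b at 101.4 CPM (next 40.9). Fl/+ 4-OHT 26 was high for Tubb2b at 1037 CPM (next 862.7) and low for Tubb5 at 1344 CPM (next 1475). Fl/+ 4-OHT 36 was high for Map1b at 111.7 CPM (next 72.5). Fl/+ untreated 26 was high for Mapt at 244 CPM (next 174.9).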

How the results depend on the processing

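The count of members called after Trrap deletion was 18, lay between 13 and 18 with 1 library left out (13 without Fl/Fl 27 or Fl/Fl 29) and reached 20 with DESeq2. For 4-OHT in Fl/+, 6 members were called, 12 when mouse entered as a replicate block and 3 to 7 with 1 library left out. The fits with 3 left out Fl/+ untreated 26 or Fl/+ 4-OHT 19, 24 or 35. The block lost none of the 6 calls. The median log2 fold change of the members under 4-OHT, 0.0167, ranged from -0.0250 to 0.0420 with 1 library left out, falling below 0 at -0.0187 without Fl/+ untreated 36 and at -0.0250 without Fl/+ 4-OHT 26. That of Stmn1 under 4-OHT, which was not called, ranged from -0.0656 to 0.132 and was below 0 in 6 such fits. For Fl/Fl 4-OHT against untreated Fl/+ cultures, the median moved from -0.116 to -0.0252 with scaling by library size alone, as that of all genes moved from 0.0025 to 0.0935. Calls numbered 19, and 15 to 19 with 1 library left out, and the higher ones rose from 3 to 5 with library size alone and to 6 with DESeq2. Without division by exon length, shares were 89.7% for Tuba1a in untreated and 84.4% in Fl/Fl 4-OHT cultures, 28.2% for Tubb2b in Fl/+ 4-OHT cultures, and 42.4%, 46.5% and 35.9% for Tubb5 in untreated, Fl/+ 4-OHT and Fl/Fl 4-OHT cultures. With a floor of 3 counts, or 0.105 CPM, Stmn2 was too low to be tested.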
